A study of Mus musculus with 9 samples.

Results

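Tuft cells are epithelial cells that carry a set of signalling genes best known from leukocytes, and 8 of these genes were followed here in tuft cells sorted from mouse thymus. The set was defined by symbol as Vav1, Bmx, Plcg2, Sh2d6, Sh2d7, Ly6g6f, Ly6g6d, Lrmp and Siglecf. Of these 9 symbols, 8 had a row among the 13223 genes of the deposited table, and Ly6g6f was not analysed here. The irradiated group held 4 libraries of thymic tuft cells from young female wild-type mice given a sublethal dose of 425 rad, with the thymus taken on day 3. The untreated group held 5 libraries from wild-type females of the same age that received no irradiation, and both groups were sorted from enzymatically digested thymi. The assay was bulk MARS-seq, which counts the 3' ends of polyadenylated transcripts in a pool of cells. The sources used here give neither the sort gate nor the size of each pool, nor whether any 2 libraries came from different animals. The p-values are therefore about the spread from library to library, which may be technical.

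In leukocytes, antigen and Fc receptors signal through tyrosine kinases that phosphorylate adaptor proteins, and SH2 domains dock onto the phosphorylated sites. Phospholipase C gamma 2 (Plcg2) then cleaves a membrane phosphoinositide to release inositol trisphosphate, which opens calcium channels of the endoplasmic reticulum, while Vav1 activates small GTPases that remodel actin. Bmx is a kinase of the TEC family, Sh2d6 and Sh2d7 are small SH2-domain proteins, and Lrmp (also Jaw1 or Irag2) is an endoplasmic reticulum membrane protein first described in lymphoid cells that binds inositol trisphosphate receptors. At the cell surface, Ly6g6d is a small lipid-anchored LY6-family protein and Siglecf is a sialic acid-binding lectin with inhibitory motifs, best known from mouse eosinophils and alveolar macrophages. Tuft cells of several tissues express these genes, and Siglecf has also been described on tuft cells of the intestine.

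In the mm10 annotation of GENCODE M21 each of the 8 genes is protein-coding. Vav1 is at chr17:57279100-57328031 (plus strand), Plcg2 at chr8:117498291-117635142 (plus), Bmx at chrX:164192842-164258193 (minus), Siglecf at chr7:43351341-43359531 (plus) and Sh2d6 at chr6:72513641-72521707 (minus), and no exon of these 5 overlaps an exon of another gene. Sh2d7 at chr9:54538984-54545020 (plus) overlaps exons of Cib2 on the opposite strand. Likewise Ly6g6d at chr17:35071443-35078065 (minus) overlaps Ly6g6e, and Lrmp at chr6:145115653-145174934 (plus) overlaps Casc1 and Gm43910. The sources used here do not say whether counting used the strand, so reads of such partners could not be told apart. The overlapping partners were at 54.6 to 86.2 CPM (counts per library total after TMM scaling) in irradiated and 42.9 to 81.4 CPM in untreated libraries for Cib2, at 25.3 to 68.7 CPM in irradiated and 20.9 to 85.9 CPM in untreated libraries for Ly6g6e, and at 4.21 to 20.3 CPM in irradiated and 1.32 to 9.87 CPM in untreated libraries for Casc1.

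Promoter windows were available from RefSeq (GRCm38.p6, the assembly behind mm10) for 8 of the 9 symbols, in 10 windows of 250 bases before and 50 bases after a transcript start. They are shown for Sh2d6 and Sh2d7, whose untreated levels rank the libraries alike, for Siglecf, which differed most between the groups, and for Ly6g6d and Vav1, whose windows held a searched word. The searched words were the octamer bound by POU-domain factors such as the tuft cell factor Pou2f3, ATGCAAAT, and a word typical of the ETS family, which includes Spib, GAGGAAGT, each on both strands, and matches are in capitals. The words were picked with these windows in view, and a match is a description of the letters, not of binding. All windows below read 5' to 3' along the gene's own strand. The windows are chr17:35081190-35081489 and chr17:35078007-35078306 on the minus strand for Ly6g6d, chr17:57278850-57279149 on the plus strand for Vav1, chr6:72519987-72520286 on the minus strand for Sh2d6, chr9:54533873-54534172 on the plus strand for Sh2d7, and chr7:43351091-43351390 on the plus strand for Siglecf.
Ly6g6d, upstream start: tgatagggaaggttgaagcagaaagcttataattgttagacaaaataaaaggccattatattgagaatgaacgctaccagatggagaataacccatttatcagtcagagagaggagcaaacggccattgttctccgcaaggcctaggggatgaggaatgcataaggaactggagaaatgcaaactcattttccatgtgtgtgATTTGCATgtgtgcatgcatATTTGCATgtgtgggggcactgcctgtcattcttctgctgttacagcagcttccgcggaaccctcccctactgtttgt
Ly6g6d, annotated start: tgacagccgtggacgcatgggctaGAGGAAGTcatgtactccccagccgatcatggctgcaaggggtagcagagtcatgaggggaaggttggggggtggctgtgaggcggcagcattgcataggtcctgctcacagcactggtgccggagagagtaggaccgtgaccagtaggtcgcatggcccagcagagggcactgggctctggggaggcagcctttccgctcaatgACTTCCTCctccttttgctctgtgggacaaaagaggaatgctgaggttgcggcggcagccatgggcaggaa
Vav1: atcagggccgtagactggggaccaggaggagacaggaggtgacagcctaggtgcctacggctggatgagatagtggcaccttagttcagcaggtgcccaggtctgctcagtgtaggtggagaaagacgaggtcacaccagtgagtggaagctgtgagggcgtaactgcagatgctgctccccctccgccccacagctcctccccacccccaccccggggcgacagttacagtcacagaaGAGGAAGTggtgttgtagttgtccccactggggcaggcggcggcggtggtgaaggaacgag
Sh2d6: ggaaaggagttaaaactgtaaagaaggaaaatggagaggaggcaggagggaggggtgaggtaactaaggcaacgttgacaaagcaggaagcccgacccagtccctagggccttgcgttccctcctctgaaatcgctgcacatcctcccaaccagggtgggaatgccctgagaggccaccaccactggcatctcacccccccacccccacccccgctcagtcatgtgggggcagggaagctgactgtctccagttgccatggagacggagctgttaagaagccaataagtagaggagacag
Sh2d7: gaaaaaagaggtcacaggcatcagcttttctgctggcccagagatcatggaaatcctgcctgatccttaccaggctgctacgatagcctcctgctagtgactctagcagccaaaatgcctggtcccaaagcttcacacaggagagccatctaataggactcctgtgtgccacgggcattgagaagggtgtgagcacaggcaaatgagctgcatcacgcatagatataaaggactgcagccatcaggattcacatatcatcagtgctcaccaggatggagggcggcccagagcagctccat
Siglecf: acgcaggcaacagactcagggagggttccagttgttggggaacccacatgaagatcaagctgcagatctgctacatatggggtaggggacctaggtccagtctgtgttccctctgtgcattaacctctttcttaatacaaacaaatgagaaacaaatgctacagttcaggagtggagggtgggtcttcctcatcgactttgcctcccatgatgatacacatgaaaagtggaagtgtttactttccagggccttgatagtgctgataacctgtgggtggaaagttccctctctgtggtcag
The upstream Ly6g6d window, which lies within the annotated span of Ly6g6f, held 2 octamers, both as the reverse complement ATTTGCAT and starting 48 and 28 bases before the transcript start. Of all 32851 promoter windows, 1.74% held an octamer and 0.107% held at least 2. The Ly6g6d window at its annotated start held 2 ETS-type words, and the Vav1 window held 1, which started 11 bases before the transcript start. Of all windows, 3.2% held at least 1 ETS-type word and 0.0609% held at least 2. The windows of Bmx, Plcg2, Sh2d6, Sh2d7, Siglecf and Ly6g6f and the remaining window of Ly6g6d held neither word. The RefSeq starts of Sh2d6 and Sh2d7 differ from the ends of the annotated spans given above.

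Library totals ran from 509157 to 939948 counts in irradiated and from 686082 to 978442 in untreated libraries, so 1 count was worth 1.04 to 2.10 CPM in irradiated and 1.05 to 1.48 CPM in untreated libraries. Irradiated replicate 4 had the smallest total and 11747 detected genes, against 12445 to 12691 in the other irradiated and 12634 to 12917 in the untreated libraries, and lay at 75.08 on the first principal component, with the other libraries between -31.77 and 6.12. Of the 18 tuft cell markers measured, including Trpm5, Avil and Pou2f3, 17 were tested, and their summed level was 11250 to 14940 CPM in irradiated and 6876 to 14130 CPM in untreated libraries. Among untreated libraries, replicate 1 had the highest summed thymocyte markers (805 CPM, against 68.3 to 236 in the other untreated libraries) and replicate 2 the highest summed markers of cortical (884 CPM, against 137 to 211) and medullary thymic epithelium (1822 CPM, against 356 to 803). Markers of fibroblasts and pericytes summed to 2459 to 3940 CPM in irradiated and 329 to 2024 CPM in untreated libraries, and those of mesothelium to 854 to 1704 CPM in irradiated and 352 to 772 CPM in untreated libraries. In pools of this kind, fewer cells of a type and less RNA per cell cannot be told apart.

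None of the 8 genes passed the test between the groups 3 days after irradiation by edgeR's quasi-likelihood test with Benjamini-Hochberg adjustment over 8934 genes. The count was 0 of 8 higher and 0 of 8 lower, against 1.22% and 0.123% of all genes tested, or 1.34% together. An unadjusted p under 0.05 was reached by 1 of the 8, Siglecf, against 10.6% of all genes tested. By the Wald test of DESeq2, 1 of the 8 was called, again Siglecf, against 2.76% of the genes with a DESeq2 adjusted p (0.741% lower), and limma-voom called 0. Of the 8 log2 fold changes of irradiated over untreated, 3 were above 0, and their median was -0.01, beside -0.02 over all genes tested.

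**Figure D1:**
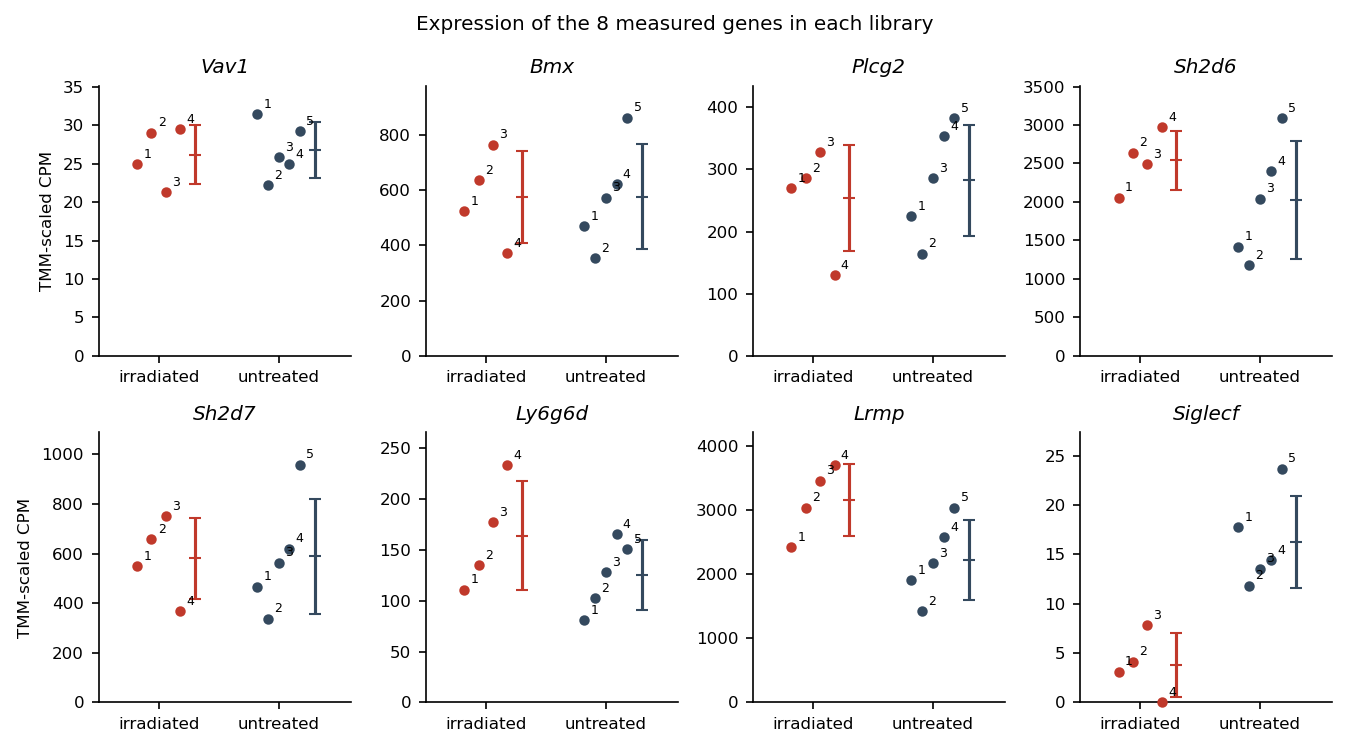
TMM-scaled CPM of the 8 measured genes in each library, irradiated on the left and untreated on the right of each panel, with replicate numbers beside the points and the mean ± SD as bars. The groups overlapped for each gene except Siglecf, whose 4 irradiated libraries lay between 0 and 7.84 CPM, under the 5 untreated ones at 11.9 to 23.7 CPM.

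Siglecf had 2, 4, 7 and 0 counts in irradiated replicates 1 to 4, against 17, 8, 11, 11 and 17 counts in untreated replicates 1 to 5. On the CPM scale these were 3.12, 4.15, 7.84 and 0 CPM in irradiated libraries, and 17.8, 11.9, 13.6, 14.5 and 23.7 CPM in untreated libraries. Each irradiated library was below each untreated one, which held for 5.14% of all genes tested in either direction and for 2.08% in this direction. The mean was 3.78 ± 3.23 CPM (SD, n = 4) in irradiated and 16.3 ± 4.68 CPM (SD, n = 5) in untreated libraries, a log2 fold change of -1.90 ± 0.51 (SE) with a 95% interval of -2.99 to -0.81. The edgeR adjusted p was 0.110 (unadjusted p = 0.00219), so the difference did not pass. DESeq2 gave an adjusted p of 0.0263 and limma-voom 0.0536, and the authors' deposited table lists an adjusted p of 0.0626 for a log2 fold change of 1.95, there given as untreated over irradiated. The result rested on 13 counts in irradiated and 64 in untreated libraries, and a count of 0 in irradiated replicate 4 allows up to 6.31 CPM (3 counts, counting error only). When 1 library at a time was left out and the same genes were tested, as decided after the data were seen, the log2 fold change ran from -2.47 to -1.63 and the edgeR adjusted p from 0.068 to 0.276.

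Some leukocyte markers were also lower in irradiated libraries and others were not, and their part in the Siglecf values was not tested. By edgeR, 2 of 3 tested dendritic cell markers were called lower (Ccr7 and Ccl22). The same call was made for 0 of 4 pan-leukocyte, 0 of 3 thymocyte, 0 of 9 macrophage and 0 of 1 eosinophil markers. Of these pan-leukocyte, thymocyte, macrophage and eosinophil markers, DESeq2 called 2, 2, 0 and 0 lower, and 3, 2, 0 and 1 had an unadjusted edgeR p under 0.05. Each of them had a log2 fold change below 0, with list medians of -2.64, -3.4, -1.06 and -2.15. The third dendritic cell marker tested had a log2 fold change of 0.53. The 6 dendritic cell markers summed to 522 CPM in irradiated replicate 4 and to 135.5 to 181 CPM in the other irradiated libraries. In untreated libraries they summed to 175 to 545 CPM. The 6 B cell markers summed to 116 to 212 CPM in irradiated and 133 to 316 CPM in untreated libraries, and the B cell gene Cd79b had a log2 fold change of 0.02. The neutrophil genes S100a8 and S100a9 had log2 fold changes of 2.06 and 2.22, and Kit, of mast cells and innate lymphoid cells, had -0.09, and none of the 4 was called by edgeR, DESeq2 or limma-voom (0 with an unadjusted edgeR p under 0.05). The 2 neutrophil genes summed to 958 CPM in irradiated replicate 1 and to 0 to 29.1 CPM in the other irradiated libraries. Their sum in untreated libraries was 15.8 to 138 CPM. Eosinophils are leukocytes for which Siglecf is a standard marker. Of the 8 eosinophil markers in the list, 4 were measured (Prg2, Ear1, Ear2 and Il5ra), with a summed level of 7.84 to 33.2 CPM in irradiated and 9.87 to 227 CPM in untreated libraries. In untreated replicates 1 to 5 the eosinophil sum was 17.8, 227, 9.87, 117 and 40.4 CPM. The Siglecf level in the same libraries was 17.8, 11.9, 13.6, 14.5 and 23.7 CPM, on 8 to 17 counts each. Prg2, the major basic protein of eosinophil granules, averaged 10.8 ± 8.99 CPM in irradiated and 52.3 ± 47.1 CPM in untreated libraries (edgeR adjusted p = 0.403). The 6 pan-leukocyte markers measured summed to 548 to 847 CPM in irradiated and 746 to 2344 CPM in untreated libraries, and the 11 thymocyte markers to 22.8 to 47.0 CPM in irradiated and 68.3 to 805 CPM in untreated libraries. The leukocyte common antigen Ptprc averaged 8.07 ± 4.35 CPM in irradiated and 52.4 ± 53.7 CPM in untreated libraries (edgeR adjusted p = 0.142). The 10 macrophage markers summed to 236 to 965 CPM in irradiated and 212 to 2152 CPM in untreated libraries. Of the other Siglecs, the 3 of lymphocytes and plasmacytoid dendritic cells were near the floor in irradiated libraries, with 2 counts of Cd22, 4 of Siglecg and 0 of Siglech, against 34, 25 and 171 counts in untreated libraries. Untreated replicate 1 held most of these, at 24.1 CPM of Cd22, 24.1 CPM of Siglecg and 163 CPM of Siglech, and untreated replicates 4 and 5 had none of the 3 genes. Siglecg was at 3.12, 0, 0 and 4.21 CPM in irradiated replicates 1 to 4, against 1.48 and 1.23 CPM in untreated replicates 2 and 3, so its direction turned without untreated replicate 1.

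Lrmp was the gene with the next smallest p. It stood at 2422, 3038, 3459 and 3699 CPM in irradiated replicates 1 to 4, against 1906, 1424, 2174, 2575 and 3040 CPM in untreated replicates 1 to 5. Each irradiated library was above untreated replicates 1 to 3, and the groups overlapped. The mean was 3155 ± 560 CPM (SD, n = 4) in irradiated and 2224 ± 619 CPM (SD, n = 5) in untreated libraries, and the log2 fold change was 0.50 ± 0.24 (95% interval -0.0080 to 1.02, edgeR adjusted p = 0.483). Among the inositol trisphosphate receptors to which Lrmp binds, Itpr3 averaged 205 ± 36.3 CPM in irradiated and 163 ± 14.9 CPM in untreated libraries (edgeR adjusted p = 0.509). Itpr2 averaged 83.9 ± 11.2 CPM in irradiated and 103 ± 19.9 CPM in untreated libraries (edgeR adjusted p = 0.651), and Itpr1 22.7 ± 7.88 CPM in irradiated and 23.7 ± 6.09 CPM in untreated libraries (0.945). The related Mrvi1 (Irag1) was too low to be tested, with 25 counts in irradiated and 35 in untreated libraries.

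Plcg2, which generates inositol trisphosphate downstream of immune receptors, had 270, 286, 328 and 130 CPM in irradiated replicates 1 to 4, against 225, 164, 286, 354 and 382 CPM in untreated replicates 1 to 5. Irradiated replicate 4 was the lowest library of all 9 and the other irradiated libraries lay within the untreated range. The log2 fold change was -0.15 ± 0.28 (95% interval -0.75 to 0.46, edgeR adjusted p = 0.910), and 0.07 without irradiated replicate 4. Plcb2, the phospholipase of the taste cascade, averaged 640 ± 133 CPM in irradiated and 530 ± 154 CPM in untreated libraries (edgeR adjusted p = 0.773).

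Bmx and the SH2-domain gene Sh2d7 followed each other closely. Bmx had 524, 635, 765 and 372 CPM in irradiated replicates 1 to 4, against 470, 354, 573, 621 and 863 CPM in untreated replicates 1 to 5. Sh2d7 had 548, 657, 749 and 368 CPM in the same irradiated libraries, against 467, 338, 564, 619 and 958 CPM in the untreated ones. For both genes the irradiated values fell inside the untreated range, with the same library order in both groups. The log2 fold change was -0.0019 ± 0.26 for Bmx (95% interval -0.57 to 0.56, edgeR adjusted p = 0.999) and -0.02 ± 0.28 for Sh2d7 (-0.63 to 0.59, 0.986), and 0.16 and 0.15 without irradiated replicate 4. The related kinase Tec was at 49.3 ± 11.4 CPM in irradiated and 49.1 ± 5.16 CPM in untreated libraries (edgeR adjusted p = 0.986), whereas Btk, the TEC kinase of B cells, had 3 counts over the irradiated libraries and 16 over the untreated ones. Bmx is also known from endothelium, whose 7 markers summed to 634 to 1934 CPM in irradiated and 621 to 1455 CPM in untreated libraries. The endothelial sum was 1420, 902, 634 and 1934 CPM in irradiated replicates 1 to 4. In untreated replicates 1 to 5 it was 912, 621, 1455, 1361 and 690 CPM. The part of endothelial cells in the Bmx values was not tested.

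Sh2d6 had 2055, 2641, 2491 and 2976 CPM in irradiated replicates 1 to 4, against 1421, 1175, 2043, 2396 and 3092 CPM in untreated replicates 1 to 5. The irradiated libraries lay inside a wide untreated range, each above untreated replicates 1 to 3, with a coefficient of variation of 15.0% in irradiated and 38.0% in untreated libraries. The log2 fold change was 0.33 ± 0.27 (95% interval -0.25 to 0.90, edgeR adjusted p = 0.752). Of the other 6 tested genes of the SH2D and SH2B families, 0 were called by edgeR, DESeq2 or limma-voom, 0 had an unadjusted p under 0.05, and their median log2 fold change was -0.04. The smallest p-values were those of the adaptors Sh2b2 (26.3 ± 5.02 CPM in irradiated, 17.2 ± 6.14 CPM in untreated libraries, edgeR adjusted p = 0.535) and Sh2b1 (84.9 ± 16.6 CPM in irradiated, 98.9 ± 16.1 CPM in untreated libraries, 0.768).

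Ly6g6d had 111, 135, 177 and 234 CPM in irradiated replicates 1 to 4, against 80.6, 102, 128, 166 and 151 CPM in untreated replicates 1 to 5. Irradiated replicates 3 and 4 lay above each untreated library, while the other 2 irradiated libraries lay within the untreated range. The log2 fold change was 0.38 ± 0.25 (95% interval -0.16 to 0.92, edgeR adjusted p = 0.659), and 0.18 without irradiated replicate 4. Its neighbours in the major histocompatibility complex did not share this profile. Ly6g6c ran from 11.2 to 61.0 CPM in irradiated and from 3.95 to 185 CPM in untreated libraries, with its highest value in untreated replicate 2, where Ly6g6e also had its highest value (85.9 CPM), and Ly6g6g had 1 count over the irradiated and 11 over the untreated libraries. In the list of LY6 and uPAR-domain proteins, 1 of 16 tested genes was called higher by edgeR, 0 were called lower and 15 did not pass. It was Plaur, the urokinase receptor, at 122, 119, 63.8 and 133 CPM in irradiated replicates 1 to 4, against 56.5, 20.7, 29.6, 44.7 and 23.7 CPM in untreated replicates 1 to 5 (log2 fold change 1.61 ± 0.30, edgeR adjusted p = 0.0159). Leaving out untreated replicate 3 or irradiated replicate 1 or 2 ended the Plaur call (edgeR adjusted p = 0.0564, 0.0801 and 0.0637), as did scaling by tuft marker counts (0.19). The median log2 fold change of the 16 genes was -0.47, and 12 of them had a fold change below 0. The part of the fibroblast and mesothelial markers given above in the Plaur values was not tested. Ly6e averaged 2066 ± 309 CPM in irradiated and 2851 ± 244 CPM in untreated libraries (edgeR adjusted p = 0.376).

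Vav1 had the smallest coefficient of variation of CPM among the 8 in each group, on 14 to 30 counts per library. It stood at 25.0, 29.0, 21.3 and 29.5 CPM in irradiated replicates 1 to 4, against 31.4, 22.2, 25.9, 25.0 and 29.3 CPM in untreated replicates 1 to 5, on 77 counts in irradiated and 106 in untreated libraries. The groups overlapped over most of their range, and the coefficient of variation was 14.7% in irradiated and 13.5% in untreated libraries. The log2 fold change was -0.04 ± 0.25 (95% interval -0.58 to 0.49, edgeR adjusted p = 0.970). Untreated replicates 1 and 2 had the highest pan-leukocyte sums (2344 and 1951 CPM). Their Vav1 levels, on 30 and 15 counts, were the highest and the lowest of the untreated group. The part of leukocytes in the Vav1 values was not tested. Its relative Vav2 averaged 32.7 ± 12.5 CPM in irradiated and 38.1 ± 15.3 CPM in untreated libraries (edgeR adjusted p = 0.880), and Vav3, with 31 counts in irradiated and 60 in untreated libraries, was too low to be tested.

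**Figure D2:**
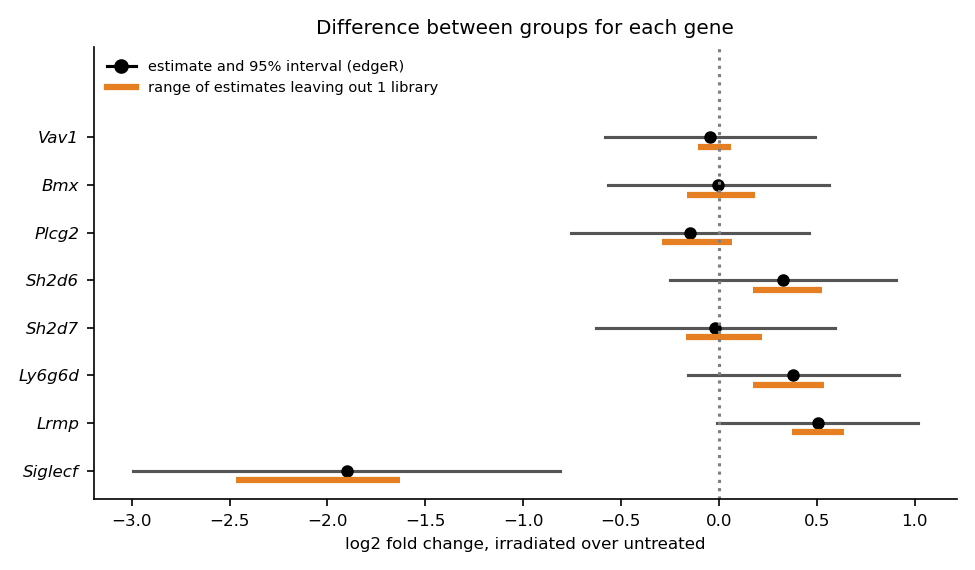
Log2 fold change of irradiated over untreated for each gene on the x axis, with the edgeR estimate as a point, its 95% interval as a line, and the range of estimates over fits that left out 1 library as an orange bar. Siglecf lies at -1.90, and the intervals of the other 7 genes include 0; for Siglecf the orange bar holds 5 fits, since 4 others put it under the low-count filter.

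Within the untreated group, 5 of the 8 genes ranked the libraries in the order of the summed tuft cell markers, a list that holds none of the 8. That sum was 8910, 6876, 11527, 12326 and 14130 CPM in untreated replicates 1 to 5. Bmx, Plcg2, Sh2d6, Sh2d7 and Lrmp were each lowest in replicate 2, followed by replicates 1, 3 and 4, and highest in replicate 5. This order was found in 2.23% of all genes tested, and in 11 of the 17 tested tuft markers, which make up the sum. Ly6g6d, Vav1 and Siglecf had other orders. Expressed as a percentage of the tuft marker sum, the variation among untreated libraries was smaller for those 5 genes. The coefficient of variation was 5.17% in place of 27.8% for Lrmp, 7.37% in place of 31.8% for Plcg2, 8.68% in place of 33.0% for Bmx, 12.6% in place of 38.0% for Sh2d6 and 14.9% in place of 39.4% for Sh2d7. Of the 3 genes with another order, it was 19.6% in place of 27.6% for Ly6g6d, 23.4% in place of 28.8% for Siglecf and 26.9% in place of 13.5% for Vav1. The 5 genes were singled out by following the order of the sum, and the irradiated libraries were less uniform. There the ratio had a coefficient of variation of 19.4% in place of 29.0% for Bmx, 29.2% in place of 33.8% for Plcg2 and 20.3% in place of 28.2% for Sh2d7, but 19.4% in place of 15.0% for Sh2d6, 18.6% in place of 17.7% for Lrmp and 36.5% in place of 32.8% for Ly6g6d. The levels being compared come from the same libraries and share their depth and scaling.

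**Figure D3:**
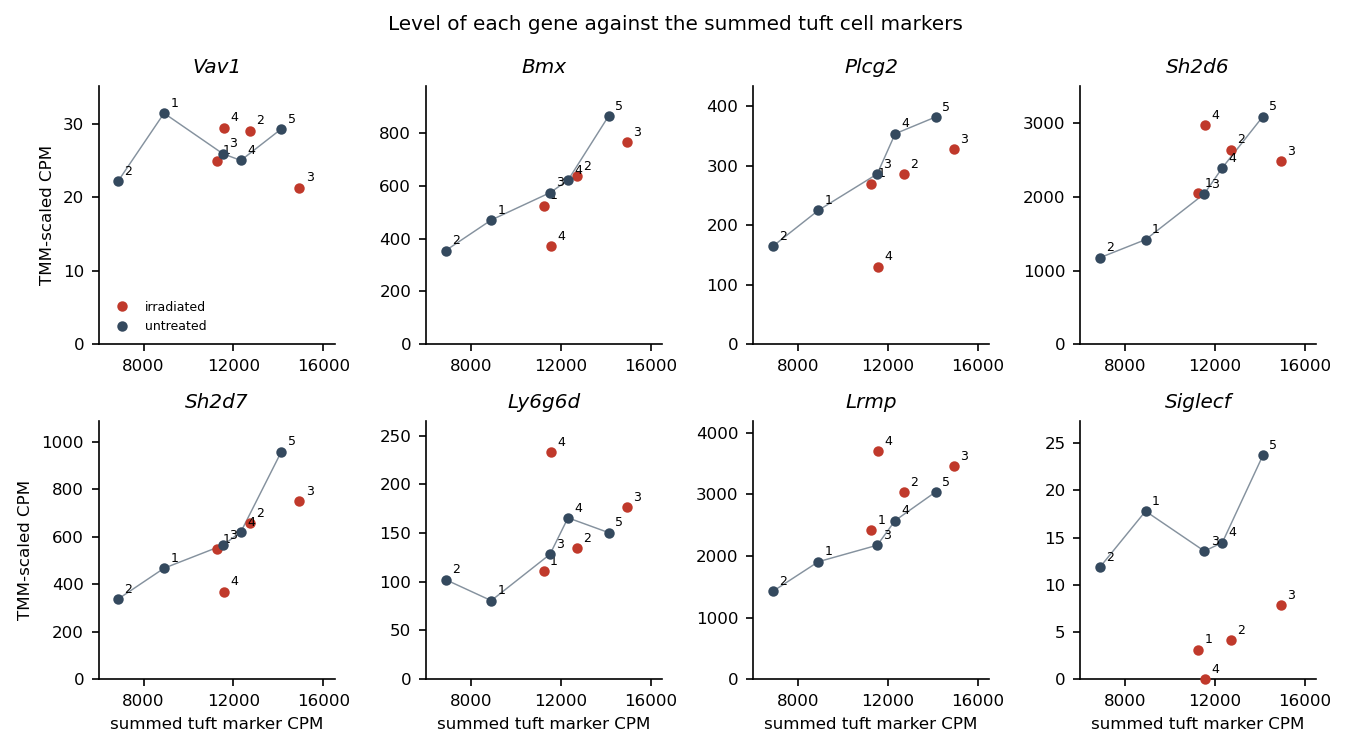
TMM-scaled CPM of each gene (y axis) against the summed CPM of 18 tuft cell markers (x axis) in each library, irradiated in red and untreated in dark grey-blue, with replicate numbers; the line joins the untreated libraries by tuft marker sum. Bmx, Plcg2, Sh2d6, Sh2d7 and Lrmp climb along the untreated line, and irradiated replicate 4 lies under it for Bmx, Plcg2 and Sh2d7 and above it for Sh2d6, Lrmp and Ly6g6d.

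Among the irradiated libraries, replicate 4 stood apart from replicates 1 to 3 in its ratios to the tuft marker sum. Lrmp was at 21.5%, 23.9%, 23.2% and 32.0% of the tuft marker sum in irradiated replicates 1 to 4, against 18.9% to 21.5% in untreated libraries. Plcg2 was at 2.40%, 2.25%, 2.20% and 1.13% in irradiated replicates 1 to 4, against 2.39% to 2.87% in untreated libraries. Bmx was at 4.66%, 5.00%, 5.12% and 3.22% in irradiated replicates 1 to 4, against 4.97% to 6.11% in untreated libraries. Compared with the mean of irradiated replicates 1 to 3, replicate 4 had 0.443 times the Plcg2 level, 0.565 times that of Sh2d7 and 0.581 times that of Bmx, but 1.24 times that of Sh2d6, 1.24 times that of Lrmp and 1.66 times that of Ly6g6d. Departures of this library in both directions were common, since 6 of the 18 tuft markers lay above and 7 below the range of the other irradiated libraries in replicate 4, as did 35.5% and 38.0% of all genes tested. With libraries scaled by the tuft marker counts, a choice made after the data were seen, the log2 fold changes were 0.28 for Lrmp, -0.38 for Plcg2, -0.24 for Bmx, -0.23 for Sh2d7 and -2.21 for Siglecf, and none was called (edgeR adjusted p of 0.085 for Siglecf). That scaling also moved the median of all genes tested to -0.32.

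Among 4100 genes tested with a mean of at least 50 CPM, the 3 with the profile nearest to each gene over the 9 libraries were found by the root mean square difference of log2 CPM after the mean of each gene was subtracted. Bmx and Sh2d7 were each other's nearest profile, at a difference of 0.061, where Bmx itself varied by 0.406 about its mean. The nearest to Plcg2 were Fyb (0.108), an adaptor of T cell receptor signalling, the leukotriene synthesis gene Alox5ap (0.125) and Skap2 (0.126), an adaptor that binds Fyb. The nearest to Sh2d6 were Alox5 (0.081), which makes leukotrienes, Nkx6-2 (0.093), a homeobox factor, and Pik3r5 (0.111), a regulatory subunit of phosphoinositide 3-kinase gamma. The nearest to Lrmp were G6pc3 (0.128), Ltc4s (0.129), a leukotriene synthase, and Snrnp25 (0.132). Of the 24 nearest profiles, 3 were in the lists of leukocyte signalling genes (Fyb, Skap2 and Pik3r5), 3 in the tuft marker list, and 2 were Bmx and Sh2d7. Those lists made up 0.805% and 0.341% of the candidates, and they were chosen with earlier results of these data known. Fyb, Skap2 and Pik3r5 also ranked the untreated libraries as the tuft marker sum did, so the 2 observations are not separate. The next nearest to Bmx were Ift81 and Chdh, and to Sh2d7 Gm4952 and Bcl2l14. The nearest to Ly6g6d were 2300009A05Rik (0.146), Chchd10 and Arhgap1, and to Vav1 Mrps26 (0.086), Cherp and Rhog. For Siglecf the nearest, Eif2ak2, was at 0.536, against 0.061 to 0.146 for the nearest of the other 7 genes. The difference depends on how much a gene varies, and Vav1, with its nearest at 0.086, varied by 0.166 about its mean. Apart from Siglecf, the remaining genes of the set varied by 0.406 to 0.48. Siglecf itself varied by 0.996 about its mean, on 0 to 17 counts per library. With a prior count of 10 in place of 2, its nearest was Rtp4 at 0.207, where Siglecf varied by 0.457.

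**Figure D4:**
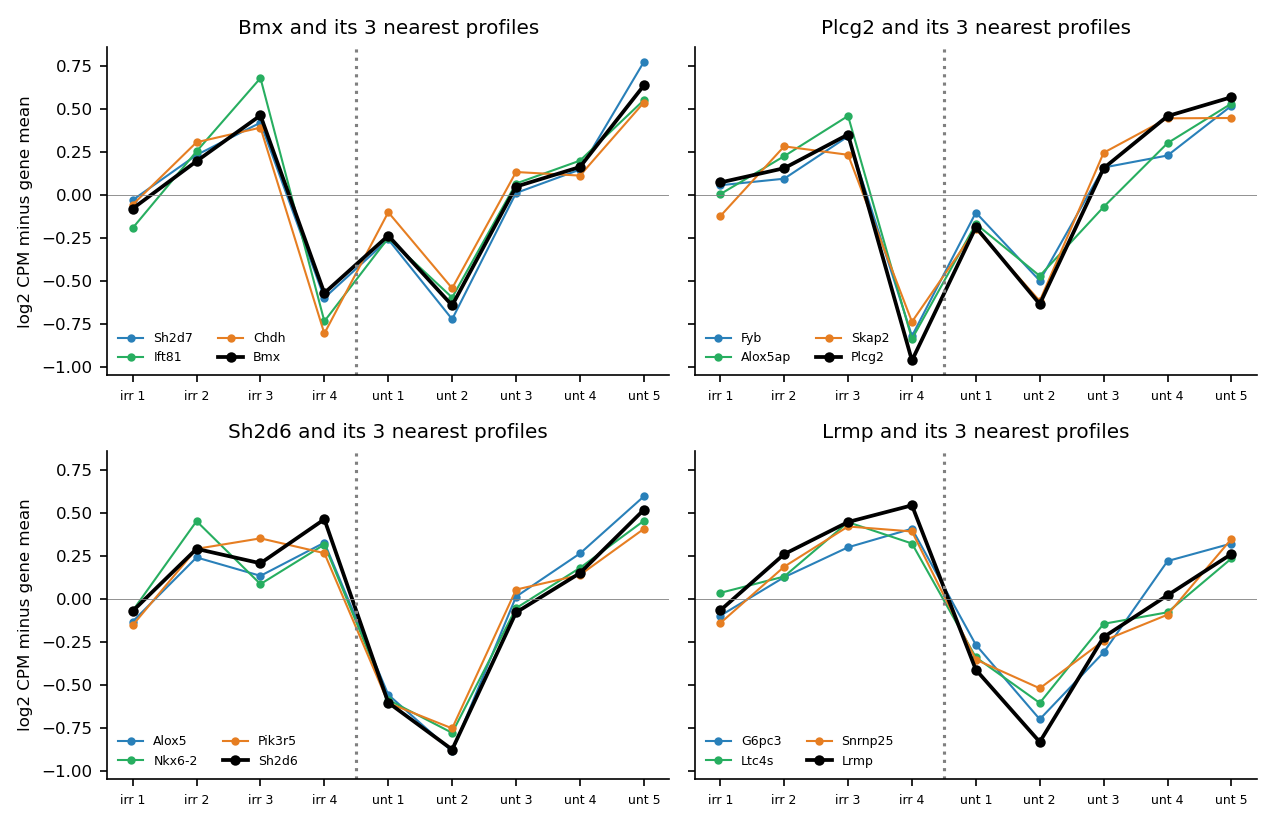
Log2 CPM minus the mean of each gene (y axis) in 4 irradiated (irr) and 5 untreated (unt) libraries (x axis) for Bmx, Plcg2, Sh2d6 and Lrmp in black, each with its 3 nearest profiles in colour; lines only guide the eye between libraries. Bmx and Plcg2 drop in irradiated replicate 4, where Sh2d6 and Lrmp are at their highest among irradiated libraries.

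The wider leukocyte signalling pathway was described with 4 lists of 98 genes, of which 91 had a row and 64 were tested. By edgeR 0 were called higher and 0 lower (6 with an unadjusted p under 0.05), and DESeq2 and limma-voom each called 0. DESeq2 gave no p-value for Lck and Lat, so it could not call them. The median log2 fold change was -0.12. Among 14 tyrosine kinases and phosphatases the median was 0.01. The smallest p-values belonged to Lck, the kinase of T cell receptor signalling, and Ptpn22, a phosphatase that restrains it. Lck was at 3.11 to 8.42 CPM in irradiated libraries, against 214, 35.6, 28.4, 26.3 and 19.5 CPM in untreated replicates 1 to 5 (edgeR adjusted p = 0.159, and 0.0109 without untreated replicate 1). Ptpn22 averaged 13.4 ± 5.62 CPM in irradiated and 31.9 ± 11.1 CPM in untreated libraries (edgeR adjusted p = 0.174). Among 20 adaptors, exchange factors and GTPases, the median was -0.25 and 17 fold changes were below 0. The T cell adaptor Lat was at 1.04 to 14.7 CPM in irradiated libraries, against 233, 40.0, 20.96, 35.5 and 25.1 CPM in untreated replicates 1 to 5 (edgeR adjusted p = 0.174, and 0.0336 without untreated replicate 1). Untreated replicate 1 also had the highest thymocyte markers, whose part in Lck and Lat was not tested. The adaptor Nck2 averaged 30.1 ± 10.3 CPM in irradiated and 52.5 ± 6.54 CPM in untreated libraries (edgeR adjusted p = 0.197).

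Among 20 genes of phospholipase C, calcium and protein kinase C signalling, the median log2 fold change was -0.04. The calcium-responsive factor Nfatc3 averaged 43.2 ± 10.6 CPM in irradiated and 66.9 ± 17.3 CPM in untreated libraries (edgeR adjusted p = 0.348), and the exchange factor Rasgrp2 35.1 ± 20.5 CPM in irradiated and 57.2 ± 23.0 CPM in untreated libraries (0.506). Among 10 genes of phosphoinositide 3-kinase signalling the median was 0.03. Pik3r5 averaged 835 ± 124 CPM in irradiated and 684 ± 226 CPM in untreated libraries (edgeR adjusted p = 0.765). Of the Siglec list only Mag was tested, at 91.4 ± 30.6 CPM in irradiated and 105 ± 35.4 CPM in untreated libraries (edgeR adjusted p = 0.846).

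**Figure D5:**
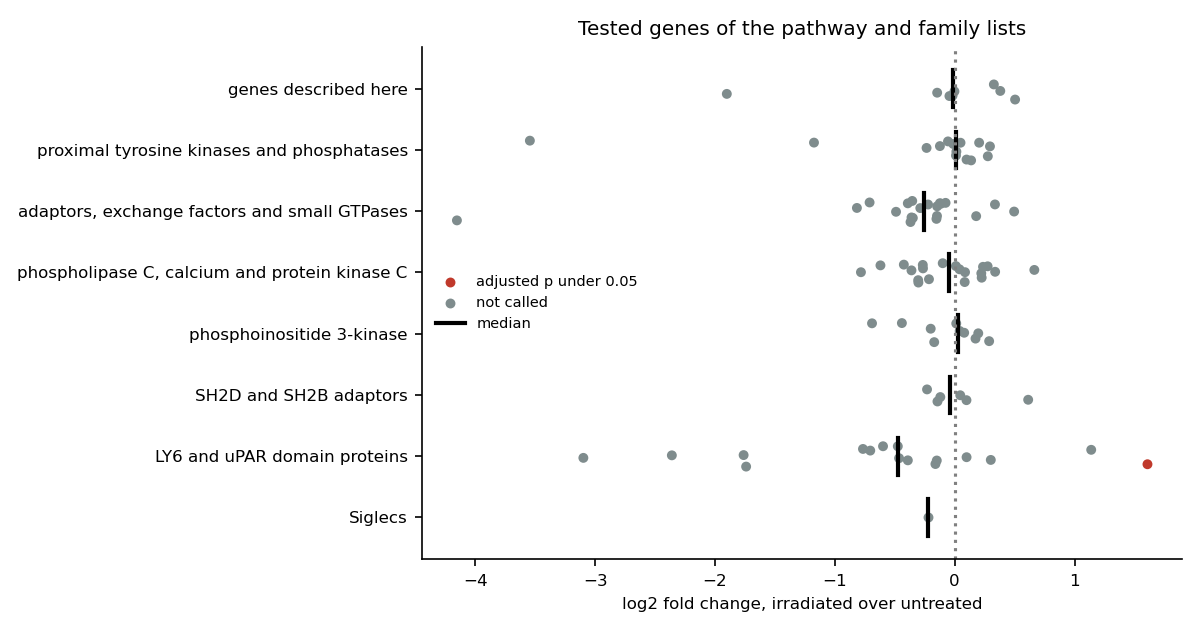
Log2 fold change of irradiated over untreated (x axis) for the tested genes of the set and of the 7 pathway and family lists (rows), 1 point per gene, red where the edgeR adjusted p is under 0.05 and grey otherwise, with list medians as black bars. Plaur, at 1.61, is the red point, and Lck and Lat lie far to the left in their lists.

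Of the 64 tested pathway genes, 8 ranked the untreated libraries as the tuft marker sum did (12.5%, against 2.23% of all genes tested), and 0 of the 23 tested genes of the SH2D, LY6 and Siglec lists did. Among the 8, and named after their values were seen, were the phosphatases Ptpn6 and Inpp5d, the adaptors Skap2, Fyb and Dok3, the transcription factor Nfatc1 and Pik3r5. Several are leukocyte proteins in textbooks, Ptpn6 being SHP-1 and Inpp5d SHIP-1, which both restrain immune receptors. Ptpn6 was at 967, 1139, 1150 and 838 CPM in irradiated replicates 1 to 4, against 872, 665, 1037, 1140 and 1367 CPM in untreated replicates 1 to 5 (edgeR adjusted p = 0.990). In the untreated libraries Ptprc was highest in replicate 1 (148 CPM, against 17.1 to 35.6 CPM in the others). Which cells in the pools these transcripts came from was not tested. Dok3 averaged 199 ± 41.6 CPM in irradiated and 142 ± 38.4 CPM in untreated libraries (edgeR adjusted p = 0.422).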

How the data were processed

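Bulk MARS-seq libraries of sorted thymic tuft cells were analysed from a single deposited table. Per the file headers, the raw columns hold counts per gene, and each row reached at least 6 counts in some library. The deposited normalized columns hold the signal as counts over a single size factor per library, the deposited regularized columns hold log2 values, and the deposited p-value columns belong to the authors' comparison, whose log2 fold change runs untreated over irradiated. Other deposited columns give flags, which like the signal and log2 columns were not used in tests. Per the submitters' processing notes, bcl2fastq, cutadapt, STAR 2.5.2b, HTSeq, DESeq2 and mm10 were used. The sources used here state neither their roles nor whether molecular identifiers were collapsed.

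Counts were fitted in R 4.3.3 with edgeR 4.0.16 (filterByExpr with a minimum count of 10, TMM, robust quasi-likelihood F test, Benjamini-Hochberg threshold 0.05), which tested 8934 genes with a biological coefficient of variation of 28.9%. Standard errors are the fold change over the square root of F. The fit was checked on simulated counts. DESeq2 1.42.0 and limma 3.58.1 were alternatives. Gene positions came from GENCODE M21, which held 13008 of the 13223 symbols. The genes, gene lists and tests were chosen with earlier results of these data known. The naming rule took all genes of the set, up to 2 genes per list with the smallest p, and the 3 nearest profiles; some genes it picked are not reported here. Count-based limits cover counting error only.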

Additional observations from a re-analysis of the deposited data

Results flagged for a closer look

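None of the 8 genes had a library whose gap to its group was wide enough by Dixon's criterion at 95%. Among the 46 groups examined (8 genes and 15 marker sums), 5 marker sums did, and chance alone flags about 1 in 20 groups. In irradiated libraries, replicate 4 was far above the others for summed dendritic cell markers (522 CPM, against 135 to 181 CPM), and replicate 1 for summed neutrophil markers (958 CPM, against 0 to 29.1 CPM). In untreated libraries, replicate 1 was far above the others for summed thymocyte markers (805 CPM, against 68.3 to 236 CPM) and for summed megakaryocyte and platelet markers (47.1 CPM, against 16.7 to 24.7 CPM), and replicate 2 for summed cortical thymic epithelial markers (884 CPM, against 137 to 210.5 CPM).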

How the results depend on the processing

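Over 20 alternatives, 0 of the 8 genes were called higher, and 1 was called lower by the Wald test of DESeq2 only (Siglecf, log2 fold change -1.95, adjusted p = 0.0263). The sign held in all alternatives that gave a value for Sh2d6 (0.10 to 0.57), Ly6g6d (0.05 to 0.54), Lrmp (0.28 to 0.65) and Siglecf (-2.47 to -1.59). Siglecf fell under the low-count filter without untreated replicate 1, 3, 4 or 5 and in both fits of replicates 1 to 4. The estimates near 0 changed sign. Bmx was at 0.0023 with DESeq2 size factors, 0.010 without a low-count filter, 0.0030 with at least 10 CPM in at least 4 libraries, 0.0021 by DESeq2, 0.028 by limma-voom, 0.093 without untreated replicate 1 and irradiated replicate 4, 0.025 without untreated replicate 2 and irradiated replicate 4, and -0.16 to 0.19 without 1 library. Sh2d7 was at 0.041 by limma-voom, 0.075 and 0.0018 without those pairs of libraries, and -0.17 to 0.22 without 1 library. Plcg2 ran from -0.29 to 0.065 and Vav1 from -0.11 to 0.062 without 1 library. The cause was not tested.

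Over all genes, 109 were higher and 11 lower. The count of higher genes was 180 by DESeq2, 37 with scaling by tuft marker counts and 50 to 114 without 1 library. The count of lower genes was 66 by DESeq2, 24 by limma-voom, 17 without untreated replicate 2 and irradiated replicate 4, 5 with scaling by tuft marker counts and 2 to 12 without 1 library. Same-numbered libraries of the groups did not deviate together (correlations of -0.123 to 0.141), so the numbers were not taken to pair them. With the replicate block on replicates 1 to 4, 22 genes were lower. Bmx was then at 0.17 and Sh2d7 at 0.22, against 0.19 and 0.22 in the same libraries without a block. Siglecf fell under the low-count filter in both of these fits and was not tested, and none of the other genes of the set was called. With a prior count of 10, 1 of the 3 nearest profiles of Lrmp and 0 of those of Siglecf were shared. Few counts limit Siglecf and Vav1.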
